A study of Mus musculus with 20 samples.

Results

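The genes of pyruvate use and the tricarboxylic acid (TCA) cycle were followed in quadriceps muscle of aged mice, as 38 of the 55416 genes in the count table. A gene belonged to the set if its Ensembl identifier carried one of 38 listed symbols. Each symbol was found once, and all 38 genes were among the 14471 that passed the filter on low counts. They comprised 17 cycle enzymes, 10 genes of the pyruvate dehydrogenase complex and its regulators, 6 pyruvate carriers and anaplerotic enzymes, and 5 shuttle and cytosolic enzymes. The mice were wild-type C57BL/6J males, 26 to 28 months old, and each library came from 1 muscle, taken here as 1 mouse. In 10 mice (Control) the quadriceps received a single injection of 50 µL of 0.9% saline. In the other 10 (Secretome) it received 50 µL of a cell-free product prepared from medium of partially differentiated human embryonic stem cells. The paper describes this product as diluted in saline for injection. All mice had been fasted for 4 h, and the injected muscle was taken 3 h after treatment. Muscle that had not been injected was not analysed here, so each difference is against a saline injection.

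Pyruvate from glycolysis enters the mitochondrion through a carrier and is converted to acetyl-CoA by the pyruvate dehydrogenase complex. Kinases switch that complex off by phosphorylation and phosphatases switch it on again. The TCA cycle then oxidizes the acetyl group and hands its electrons to the respiratory chain, and anaplerotic enzymes replace cycle intermediates that are drawn off. Oxidative muscle fibres hold more of these enzymes than fast glycolytic fibres, and the quadriceps of the mouse is mostly of the fast glycolytic type.

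The libraries held 13286983 to 22987237 reads counted on genes. In the labels they were numbered 1 to 20, with Control 1 to 10 as libraries 1 to 10 and Secretome 1 to 10 as libraries 11 to 20. What the numbers stand for is not given in the sources used here. The share of counts on Ttn, the gene of titin, followed these numbers, at 7.02% to 11.03% in libraries 1 to 5, 16.4% to 21.1% in libraries 6 to 15 and 14.2% to 14.7% in libraries 16 to 20. Treatments were therefore compared in all 20 libraries, within libraries 6 to 15 (Secretome 1 to 5 against Control 6 to 10) and between libraries 16 to 20 and 1 to 5 (Secretome 6 to 10 against Control 1 to 5). Only libraries 6 to 15 hold both treatments in 1 range of numbers. Between libraries 16 to 20 and 1 to 5, treatment and library range cannot be told apart. These last comparisons share no library with each other, while the comparison of all 20 holds the libraries of both. Acta1, Ckm, Mb and Des, markers of skeletal muscle fibres, were present in every library and summed to 32174 to 53072 normalized CPM, which are counts scaled to a common library size.

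Transcript levels of the 38 genes spanned more than 2 orders of magnitude. On the scale of normalized CPM per kilobase of exon, Ogdh, the first subunit of the 2-oxoglutarate dehydrogenase complex, was highest at 139 ± 24.4 in control and 148 ± 23.6 in secretome-treated muscle (SD, n = 10 each). Its CPM, without division by length, ran from 550.2 to 975 with a median of 758 in control muscle and from 652 to 1048 with a median of 766 in treated muscle. Sdha, the flavoprotein subunit of succinate dehydrogenase, followed per kilobase at 110 ± 22.5 and 130 ± 19.6, then Pdk2, a pyruvate dehydrogenase kinase, at 111 ± 19.9 and 115 ± 17.8. Pdha1, the E1 alpha subunit of pyruvate dehydrogenase, stood at 101 ± 12.7 and 121 ± 20.4. These 4 and Mdh1, at 108 ± 19.8 and 110 ± 32.8, were neighbours in the order whose SDs overlapped. Pdk3, another pyruvate dehydrogenase kinase, was lowest at 0.424 ± 0.175 and 0.309 ± 0.164, with as few as 4 counts in a library, and Me2, a mitochondrial malic enzyme, was next at 0.449 ± 0.108 and 0.545 ± 0.134.

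**Figure D1:**
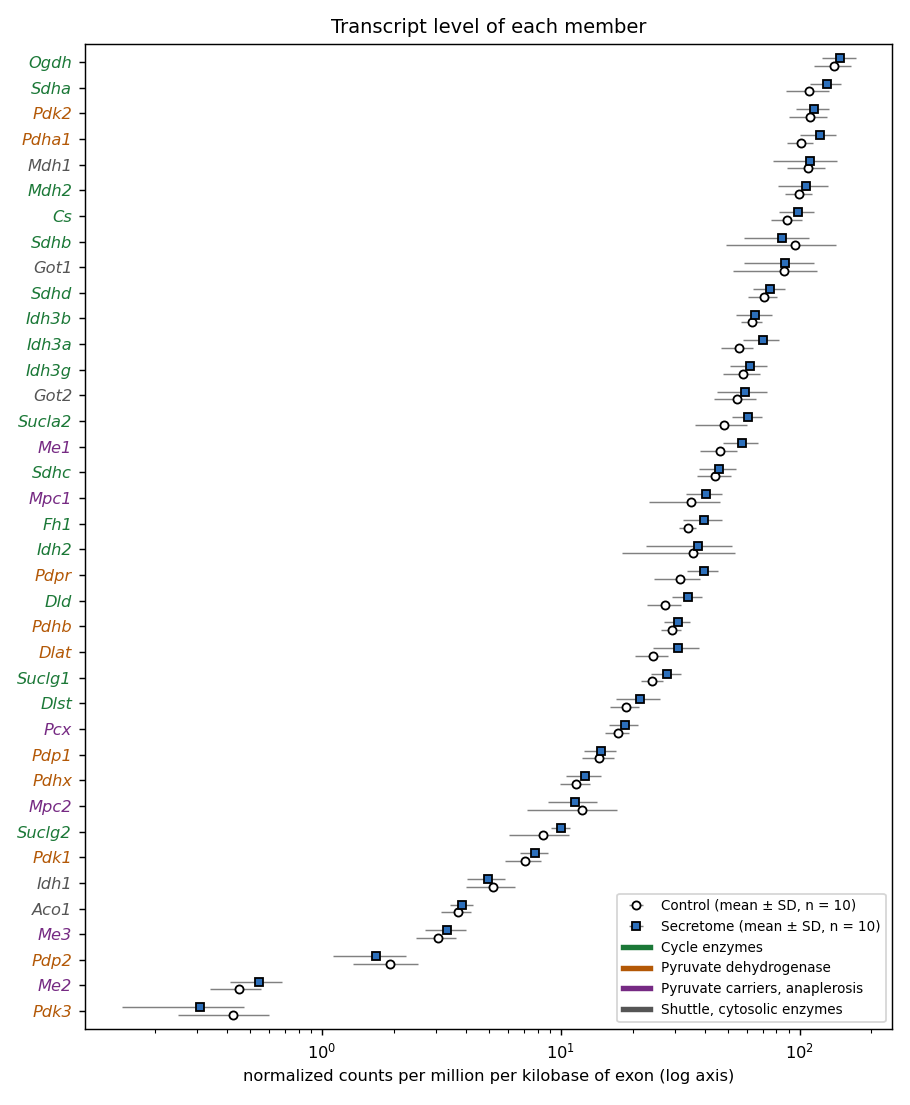
Level of each of the 38 genes, as normalized CPM per kilobase of exon on a log axis, with the mean and SD of 10 control (open circles) and 10 secretome-treated muscles (blue squares) and the gene names coloured by role. Ogdh stood highest and Pdk3 lowest, and the SDs of the treatments overlapped for each gene at this scale.

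Among genes that code for alternative forms of the same activity, 1 form usually held most of the transcript per kilobase. Sucla2, the ATP-forming beta subunit of succinyl-CoA ligase, made up 85.4% ± 2.09 (SD, n = 20 libraries) of the beta subunit transcripts, and Suclg2, the GTP-forming one, 14.7% ± 2.09. Me1, the cytosolic malic enzyme, made up 93.1% ± 1.92 of the malic enzymes, against 5.98% ± 1.88 for Me3 and 0.911% ± 0.241 for Me2. These shares depend on the length used, which joined all annotated exons of a gene, 14624 bases for Me3 and 3848 for Me1. Without division by length, mean CPM in control muscle was 179 for Me1 and 44.7 for Me3. Pdp1 made up 88.9% ± 3.68 of the catalytic subunits of pyruvate dehydrogenase phosphatase. The kinases of pyruvate dehydrogenase were divided less evenly between libraries. Pdk4, which is induced by fasting and is not among the 38 genes, held 70.2% ± 12.5 of the kinase transcripts, Pdk2 27.9% ± 11.7, Pdk1 1.85% ± 0.828 and Pdk3 0.0926% ± 0.0548. The Pdk4 share ranged from 26.8% to 80.5% between libraries. Of the isocitrate dehydrogenases, the 3 NAD-dependent subunits Idh3a, Idh3b and Idh3g had similar shares at 27.4% ± 3.06, 28.4% ± 3.67 and 26.3% ± 2.91, whereas Idh2, the mitochondrial NADP-dependent enzyme, held 15.6% ± 4.93 and cytosolic Idh1 2.27% ± 0.552.

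The spread between mice differed between members of 1 complex. Idh2 varied most among the cycle enzymes, with an SD of 0.73 in control and 0.51 in treated muscle on the log2 CPM scale. In Control 1 to 10 its normalized CPM ranged from 42.2 to 186 and in Secretome 1 to 10 from 59.1 to 173. Pdhb, the E1 beta subunit of pyruvate dehydrogenase, varied least among the genes of that complex, with SDs of 0.14 and 0.17. Sdhb, the iron-sulfur subunit of succinate dehydrogenase, had SDs of 0.51 and 0.39, while Sdhd, a membrane anchor of the same complex, had 0.21 in each group. Library Control 2 stood apart for several genes. It held 498 CPM of Sdhb against 137 to 228 in the other control libraries, 441 CPM of Got1, the cytosolic aspartate aminotransferase, against 140.0 to 225, and 187 CPM of Mpc2, a subunit of the mitochondrial pyruvate carrier, against 54.2 to 102. In the same library Mpc1, the partner subunit of Mpc2, was at 33.9 CPM against 40.5 to 101, and Sucla2 at 92.1 CPM against 120.3 to 230.2. The 2 subunits of the pyruvate carrier thus lay at opposite ends of the control range in this muscle. Control 9 was lowest of the controls for Idh3g (92.0 CPM), Sdhd (61.1 CPM), Pdk2 (213 CPM), Idh3a (217 CPM) and Got2 (181 CPM).

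In all 20 libraries, 33 of the 38 genes had a higher and 5 a lower fitted level in secretome-treated than in control muscle, with a median log2 fold change of 0.10, but none of the differences passed the false discovery rate of 5% (edgeR quasi-likelihood test, Benjamini-Hochberg adjustment over all 14471 genes). The lowest adjusted p was 0.161, for Dld. Over all genes tested the median was -0.03, and 1 gene, or 0.00691%, passed. At an unadjusted p under 0.05, 10 members were higher, or 26.3%, and 0 lower, where 6.52% of all genes tested were higher and 9.21% lower. DESeq2 also placed 0 members past the false discovery rate, with 10 at an unadjusted p under 0.05, while 213 genes in all passed with it. The cycle enzymes had a median log2 fold change of 0.15, with 16 of 17 higher. Scaled by library totals alone, without the composition factors of TMM, 9 were higher and 8 lower, with a median of 0.03, and the median of all genes moved from -0.03 to -0.16.

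The members with the smallest p in this comparison were of several roles. Among cycle enzymes, Dld, the E3 subunit shared by the pyruvate and 2-oxoglutarate dehydrogenase complexes, ranged in control muscle from 80.9 to 125 CPM with a median of 104 and in treated muscle from 99.3 to 166 with a median of 124. Its log2 fold change was 0.32 ± 0.098 (SE, adjusted p = 0.161), and 9 of 10 treated muscles lay above the control median. Idh3a, the catalytic subunit of NAD-dependent isocitrate dehydrogenase, ranged from 217 to 334 CPM in control muscle, median 287, and from 275 to 456 in treated muscle, median 349.9 (log2 fold change 0.33 ± 0.11, adjusted p = 0.172). The groups overlapped for both genes. Fh1, which is fumarase, had medians of 121 CPM in control (102 to 128) and 125 CPM in treated muscle (107 to 179), with a log2 fold change of 0.23 ± 0.094 and an adjusted p of 0.247. Suclg1, the alpha subunit of succinyl-CoA ligase, had medians of 113 CPM (87.4 to 127) and 122 CPM (104 to 156), with a log2 fold change of 0.21 ± 0.087 and an adjusted p of 0.255. For Fh1 and Suclg1 the upper end of the range differed more between the groups than the median.

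In the pyruvate dehydrogenase complex, Dlat, its E2 acetyltransferase, had the highest fitted log2 fold change of the 38 genes in this comparison. Control muscle ranged from 80.2 to 146 CPM with a median of 122, and treated muscle from 109 to 214 with a median of 145 (log2 fold change 0.36 ± 0.12, adjusted p = 0.187). Pdpr, the regulatory subunit of pyruvate dehydrogenase phosphatase, ranged from 116 to 201 CPM with a median of 139.9 in control and from 164 to 254 with a median of 189 in treated muscle (0.33 ± 0.12, adjusted p = 0.203). All 10 treated muscles lay above the control median of Pdpr, yet the upper controls overlapped with them. Pdha1 ranged from 313 to 472 CPM with a median of 372.5 and from 370.0 to 645 with a median of 438 (0.26 ± 0.097, adjusted p = 0.221). Of the exon bases of Pdha1, 16.1% overlap Map3k15 on the other strand, which had 1210 counts over all libraries against 150999 for Pdha1.

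Among the pyruvate carriers and anaplerotic, shuttle and cytosolic enzymes, Me1 had the smallest p. It ranged from 112 to 217.5 CPM in control muscle, median 183, and from 171 to 302 in treated muscle, median 217 (log2 fold change 0.30 ± 0.11, adjusted p = 0.207). Me2 had medians of 3.29 CPM (1.86 to 4.20) and 4.18 CPM (2.16 to 5.01), with a log2 fold change of 0.28 ± 0.17 and an adjusted p of 0.435. Both are malic enzymes, which convert malate to pyruvate. Got2, the mitochondrial aspartate aminotransferase of the malate-aspartate shuttle, had medians of 258 CPM (181 to 334) and 272 CPM (195 to 405), with an adjusted p of 0.731. Aco1, the cytosolic aconitase that also acts as an iron sensor, had medians of 16.8 CPM (12.9 to 20.9) and 16.8 CPM (14.6 to 20.5), with an adjusted p of 0.762. Pdk3, the lowest member per kilobase, was at 1.12 CPM (0.311 to 2.02) in control and 0.768 CPM (0.195 to 1.47) in treated muscle at the median, with a log2 fold change of -0.45 ± 0.32 and an adjusted p of 0.490. For Ogdh, the highest, the log2 fold change was 0.09 ± 0.11 (adjusted p = 0.711).

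**Figure D2:**
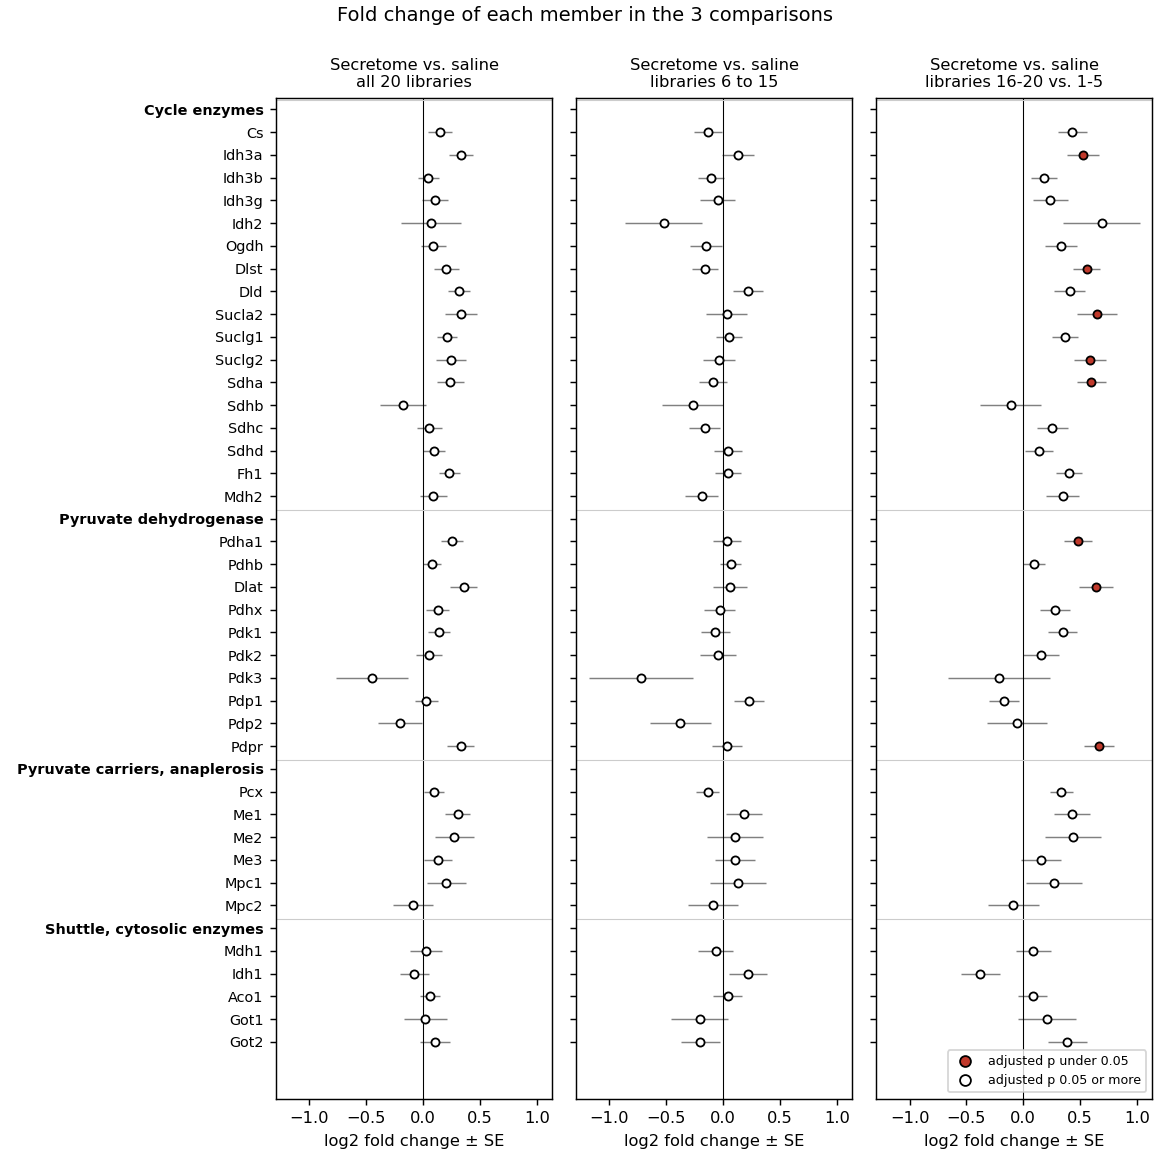
Log2 fold change (secretome over saline) with its SE for each gene, grouped by role, in all 20 libraries (left), within libraries 6 to 15 (middle) and between libraries 16 to 20 and 1 to 5 (right). The 8 filled points, all in the right panel and all above 0, had an adjusted p under 0.05.

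Within libraries 6 to 15, where both treatments occurred in 1 range of library numbers, the median log2 fold change of the 38 genes was -0.04, with 17 higher and 21 lower. None passed the false discovery rate, as was the case for 0% of all genes tested, and DESeq2 also placed 0 past it. At an unadjusted p under 0.05 the number of members was 0 in both tests, where 5.77% of all genes tested were past that level in either direction with edgeR. For 0 members did the 5 treated muscles separate fully from the 5 controls, against 1.91% of all genes. Of the cycle enzymes 6 were higher and 11 lower, with a median of -0.09, and the median over all genes was -0.03. The genes of pyruvate dehydrogenase were divided 5 to 5. The most negative fitted value among cycle enzymes was that of Idh2, at -0.52 ± 0.34 (adjusted p = 0.789), and the most positive that of Dld, at 0.22 ± 0.14 (adjusted p = 0.789). Adding the range of library numbers to the model of all 20 libraries gives these same values, since only libraries 6 to 15 hold both treatments.

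Between libraries 16 to 20 and 1 to 5, 8 members passed the false discovery rate and all 8 were higher in secretome-treated muscle, where 1.64% of all genes tested passed in that direction. They were the cycle enzymes Idh3a, Dlst, Sucla2, Suclg2 and Sdha and the pyruvate dehydrogenase genes Pdha1, Dlat and Pdpr. At an unadjusted p under 0.05, 19 members were higher and 1 lower, where 9.56% of all genes were higher and 11.6% lower. For 11 members, 8 cycle enzymes and 3 of pyruvate dehydrogenase, every treated muscle was above every control, against 2.51% of all genes. The median log2 fold change was 0.33 over the 38 genes and 0.40 over the cycle enzymes, of which 16 of 17 were higher, and -0.05 over all genes. Scaled by library totals alone, Sdha and Pdpr passed as higher, the other 6 of these genes did not pass, and Idh1 passed as lower (log2 fold change -0.60, edgeR adjusted p = 0.0340). More genes in all passed with that scaling than in the main fit. The share of members past the threshold, in either direction, was then below that of all genes tested. With that scaling 14 cycle enzymes were higher and 3 lower with a median of 0.16, and the median of all genes moved to -0.28. The calls rested on the spread pooled over all 20 libraries. With these 10 libraries fitted alone, 0 members and 0 genes in all passed, with 16 members higher and 1 lower at an unadjusted p under 0.05. The share of all genes past that unadjusted level was not taken in this fit, so these 2 counts of members have no background to be set against. Without Control 3, without Secretome 6 or without Secretome 9, 1 member passed, which was Pdpr each time, and without Secretome 10 there were 3, Dlst, Sdha and Pdpr. Pdpr passed in each of the 10 fits that left out 1 of these libraries.

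Library properties moved with this comparison, and their part in the result was not tested. Pdgfra, Dcn and Col1a1, markers of fibro-adipogenic progenitors, all 3 present in every library, summed to 406 to 691 CPM in Control 1 to 5 and 274 to 436 in Secretome 6 to 10, against 148 to 286 in Control 6 to 10 and 204 to 295 in Secretome 1 to 5. Myh4 and Actn3, both present in every library and of fast glycolytic fibres, summed to 23310 to 45861 CPM in Control 1 to 5 and 44615 to 67417 in Secretome 6 to 10. In Control 6 to 10 they summed to 42183 to 66321 CPM, and in Secretome 1 to 5 to 53266 to 63023 CPM. Myh2, the myosin of fast oxidative fibres, ranged from 52.5 to 1670 CPM in Control 1 to 5 and from 233 to 2161 in Secretome 6 to 10. The markers of slow fibres (Myh7, Myl2, Tnnt1 and Tnni1, of which all but Tnnt1 were at 0 in 1 library each) summed to 1.335 to 119 and 0.469 to 305 CPM. In whole muscle, fewer fibres of a type and less RNA per fibre cannot be told apart. The ranges of Control 1 to 5 and Secretome 6 to 10 overlapped for each of these lists, as they did for the other marker lists. Those were at 29.2 to 61.4 and 14.1 to 39.7 CPM for macrophages, 1.19 to 85.4 and 1.35 to 88.1 for neutrophils (S100a8 and S100a9 at 0 in 1 library each), 79.2 to 118 and 90.5 to 140.0 for endothelial cells, 43.7 to 223 and 47.7 to 76.8 for adipocytes, 6.63 to 10.2 and 3.98 to 8.08 for Schwann cells, and 99.1 to 1359 and 99.7 to 915.5 for erythroid cells.

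Among the cycle enzymes past the threshold, Sdha (ENSMUSG00000021577) had the smallest p. Normalized CPM in Control 1 to 5 were 377, 439.9, 315, 396 and 373, and in Secretome 6 to 10 they were 664, 516, 469, 683 and 551. The groups did not overlap (log2 fold change 0.60 ± 0.12, adjusted p = 0.0178). In libraries 6 to 15 the controls had 597, 569.9, 515, 432 and 520.2 CPM and the treated muscles 552, 441, 464, 516 and 504, a difference of -0.09 ± 0.12 (adjusted p = 0.864). Control 6, 7, 8 and 10 lay in the range of all treated muscles, and Control 9 lay below the lowest of them. Dlst (ENSMUSG00000004789), the E2 succinyltransferase of the 2-oxoglutarate dehydrogenase complex, had 159.8, 159, 139, 178 and 156 CPM in Control 1 to 5 and 295, 192, 199, 261 and 220.3 in Secretome 6 to 10. Again every treated muscle was above every control (0.56 ± 0.12, adjusted p = 0.0188). Its values in libraries 6 to 15 were 205, 220.4, 187, 181 and 202 in controls and 181, 157, 165, 192 and 196 after treatment (-0.16 ± 0.12, adjusted p = 0.799). The other subunits of these 2 enzymes differed in size of change. Sdhb, Sdhc and Sdhd had log2 fold changes of -0.11 ± 0.27, 0.25 ± 0.14 and 0.14 ± 0.12 between libraries 16 to 20 and 1 to 5 (adjusted p 0.848, 0.287 and 0.533). Ogdh and Dld had 0.33 ± 0.14 and 0.41 ± 0.14 (adjusted p 0.178 and 0.0901).

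The 2 beta subunits of succinyl-CoA ligase, the step that yields ATP or GTP directly, both passed. Sucla2 (ENSMUSG00000022110) had 193, 92.1, 120.3, 214 and 222 CPM in Control 1 to 5 and 300.1, 247, 231, 280.5 and 262 in Secretome 6 to 10 (log2 fold change 0.65 ± 0.18, adjusted p = 0.0456). Suclg2 (ENSMUSG00000061838) had 34.7, 24.5, 23.2, 35.4 and 35.6 CPM against 47.0, 43.2, 46.5, 46.8 and 47.3 (0.59 ± 0.14, adjusted p = 0.0263). Control 2 and Control 3 were lowest for both, and the treated muscles lay close together for Suclg2. Within libraries 6 to 15 Sucla2 ranged from 197 to 230.2 CPM in controls and from 182 to 249 after treatment, and Suclg2 from 34.4 to 53.6 and from 40.5 to 53.0. Idh3a (ENSMUSG00000032279) had 301, 235, 229, 301 and 271 CPM in Control 1 to 5 and 456, 335, 311, 426 and 398 in Secretome 6 to 10 (0.53 ± 0.14, adjusted p = 0.0402). Its partners did not pass, with Idh3b at 0.18 ± 0.12 (adjusted p = 0.378) and Idh3g at 0.24 ± 0.15 (adjusted p = 0.386). The gap between the highest control and the lowest treated muscle was small for Idh3a, and in libraries 6 to 15 the values ran from 217 to 334 CPM in controls and from 275 to 368 after treatment.

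Of the cycle enzymes that did not pass, Cs, which is citrate synthase and opens the cycle, Fh1 and Suclg1 had adjusted p values of 0.057, 0.0541 and 0.0747 between libraries 16 to 20 and 1 to 5. Their log2 fold changes were 0.43 ± 0.13, 0.40 ± 0.12 and 0.37 ± 0.11. Mdh2, the mitochondrial malate dehydrogenase, stood at 0.35 ± 0.14 (adjusted p = 0.172). Idh2 had the largest fitted value, at 0.69 ± 0.34, but an adjusted p of 0.245. In Control 1 to 5 it had 42.2, 115, 45.1, 104 and 48.7 CPM, and in Secretome 6 to 10 it had 173, 73.5, 117, 150.1 and 59.1. Its values in Control 2 and Control 4 lay among those of the treated muscles. Myh2 was also higher in Control 2 and Control 4, at 1670 and 1075 CPM, than in the other 3 of these controls, at 52.5 to 229 CPM.

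In the pyruvate dehydrogenase complex, Pdpr (ENSMUSG00000033624) had 135, 131, 116, 134 and 145 CPM in Control 1 to 5 and 232, 164, 168, 254 and 233 in Secretome 6 to 10. This was the smallest p of the 38 genes (log2 fold change 0.67 ± 0.13, adjusted p = 0.0148). Controls of libraries 6 to 15 had 199, 200.2, 201, 131 and 192 CPM and the treated muscles 188, 185, 181, 199 and 191, a difference of 0.03 ± 0.13 (adjusted p = 0.962). The level of Control 9 was that of Control 1 to 5, and the other 4 controls of this range were at 192 to 201 CPM, where the treated muscles had 181 to 199. Dlat (ENSMUSG00000000168) had 100.2, 122, 80.2, 125 and 122 CPM in Control 1 to 5 and 214, 138, 140.2, 192 and 171 in Secretome 6 to 10 (0.64 ± 0.15, adjusted p = 0.0245). In libraries 6 to 15 it had 129, 137, 107, 117 and 146 CPM in controls and 130.1, 109, 118, 149.9 and 157 after treatment (0.06 ± 0.15, adjusted p = 0.924), and the groups overlapped. Pdha1 (ENSMUSG00000031299) had 362, 383, 313, 354 and 335 CPM in Control 1 to 5 and 645, 430.0, 408, 481 and 476 in Secretome 6 to 10 (0.48 ± 0.12, adjusted p = 0.0319), with Secretome 6 well above the rest. Pdhb, which forms the E1 enzyme with Pdha1, had a log2 fold change of 0.09 ± 0.094 (adjusted p = 0.593), and Pdhx, which anchors E3 to the complex, 0.28 ± 0.13 (adjusted p = 0.234).

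The regulators of the complex other than Pdpr did not reach the threshold between libraries 16 to 20 and 1 to 5. Among the kinases, Pdk1 had a log2 fold change of 0.35 ± 0.13 (adjusted p = 0.119), Pdk2 0.15 ± 0.16 (adjusted p = 0.610) and Pdk3 -0.22 ± 0.45 (adjusted p = 0.818). The catalytic phosphatase subunits Pdp1 and Pdp2 were at -0.17 ± 0.13 and -0.06 ± 0.27 (adjusted p 0.481 and 0.927). Pcx, pyruvate carboxylase, which makes oxaloacetate from pyruvate, was at 0.34 ± 0.10 (adjusted p = 0.0684). The malic enzymes Me1, Me2 and Me3 were at 0.43 ± 0.16, 0.44 ± 0.24 and 0.16 ± 0.18 (adjusted p 0.122, 0.309 and 0.635), and the pyruvate carrier subunits Mpc1 and Mpc2 at 0.27 ± 0.25 and -0.09 ± 0.22 (adjusted p 0.551 and 0.856). Of the exon bases of Mpc1, 23.1% overlap another annotated gene, which had 33 counts over all libraries. Among the shuttle and cytosolic enzymes, Got1, Got2 and Mdh1 were at 0.21 ± 0.25, 0.39 ± 0.17 and 0.09 ± 0.16 (adjusted p 0.675, 0.199 and 0.779). Aco1 was at 0.08 ± 0.13 (adjusted p = 0.745). Idh1, which makes cytosolic NADPH, was the 1 member lower at an unadjusted p under 0.05, at -0.38 ± 0.17 (adjusted p = 0.201), with 16.1, 12.98, 13.5, 19.7 and 17.1 CPM in Control 1 to 5 and 13.3, 12.1, 13.6, 10.3 and 11.9 in Secretome 6 to 10.

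**Figure D3:**
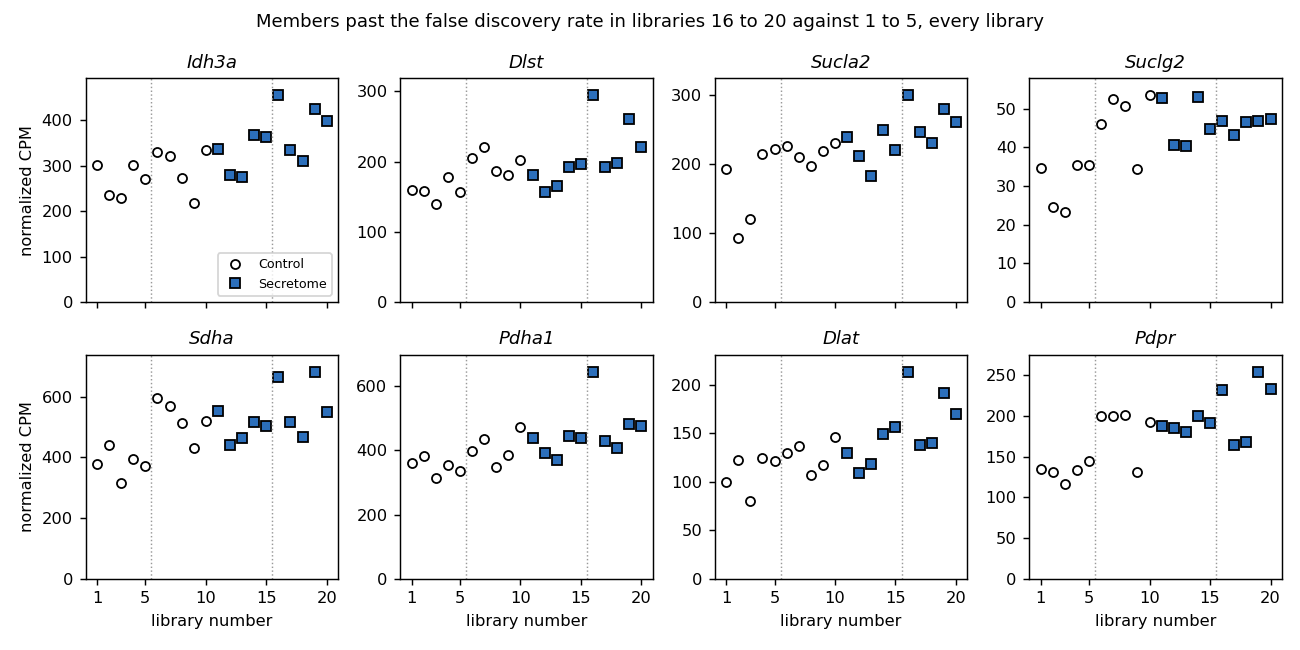
Normalized CPM of the 8 genes called between libraries 16 to 20 and 1 to 5, in every library by its number, with control muscles as open circles and secretome-treated muscles as blue squares; dotted lines part the 3 ranges of library numbers. Libraries 16 to 20 lay above libraries 1 to 5 for each gene, whereas the treatments overlapped in libraries 6 to 15.

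The promoters of the cycle enzyme genes Dlst and Sdha and of the pyruvate dehydrogenase genes Dlat and Pdpr are shown, since these genes rose together between libraries 16 to 20 and 1 to 5 and Dlst, Sdha and Pdpr had the smallest p in the test of the difference described after them. The sequences are from RefSeq on GRCm38.p6, an earlier build than the GRCm39 of the counts, on the strand of the gene, from 250 bases before the annotated start to 30 after it. Capitals mark matches, on either strand, to 10 short motifs that were searched. Dlst is at chr12:85110583-85110862 (plus strand), Sdha at chr13:74350211-74350490 (minus), Dlat at chr9:50659751-50660030 (minus) and Pdpr at chr8:111094495-111094774 (plus).
Dlst: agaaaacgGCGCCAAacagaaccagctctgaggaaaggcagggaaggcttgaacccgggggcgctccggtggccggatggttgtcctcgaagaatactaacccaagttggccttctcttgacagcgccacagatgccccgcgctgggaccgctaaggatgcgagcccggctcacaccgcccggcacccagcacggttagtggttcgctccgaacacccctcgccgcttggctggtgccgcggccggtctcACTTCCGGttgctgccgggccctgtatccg
Sdha: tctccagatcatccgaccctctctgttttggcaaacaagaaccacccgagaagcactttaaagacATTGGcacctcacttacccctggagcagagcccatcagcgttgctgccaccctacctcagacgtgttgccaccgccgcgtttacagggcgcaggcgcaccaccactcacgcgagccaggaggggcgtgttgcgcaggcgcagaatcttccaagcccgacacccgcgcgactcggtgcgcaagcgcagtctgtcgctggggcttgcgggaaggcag
Dlat: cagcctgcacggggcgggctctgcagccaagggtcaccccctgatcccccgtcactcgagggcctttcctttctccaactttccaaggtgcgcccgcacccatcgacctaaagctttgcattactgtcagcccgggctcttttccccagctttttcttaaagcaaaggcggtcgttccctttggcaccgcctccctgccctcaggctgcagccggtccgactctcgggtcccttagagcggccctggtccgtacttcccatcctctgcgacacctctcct
Pdpr: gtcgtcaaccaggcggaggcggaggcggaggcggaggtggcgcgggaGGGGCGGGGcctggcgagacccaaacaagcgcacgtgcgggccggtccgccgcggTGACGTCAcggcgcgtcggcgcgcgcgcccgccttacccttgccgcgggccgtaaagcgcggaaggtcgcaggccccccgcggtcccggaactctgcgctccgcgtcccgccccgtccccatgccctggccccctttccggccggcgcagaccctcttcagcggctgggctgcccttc

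In the Dlst promoter the capitals are TTGGCGC, a motif of E2F factors, read on the other strand and beginning 242 bases before the start, and CCGGAAGT, a motif of GABPA, read on the other strand at the start itself. In Sdha they are CCAAT, the NF-Y box, on the other strand 185 bases before the start, and a match to TTGGCGC that begins 42 bases after the start lies past the bases shown. In Pdpr they are GGGGCGGGG, an SP1 motif, 203 bases before the start and TGACGTCA, a CREB motif, 148 bases before it. In Dlat no match lay in the window. No motif was found in all 4 promoters. Their GC content was 65.7%, 62.7%, 62.0% and 76.7% in the order shown, over the full window of 300 bases that reaches 50 bases past the start. Promoters of 34 of the 38 genes, in 45 windows, were found in the table, and Idh3a, Me2, Pdp1 and Sdhc had no entry. CCAAT occurred in 60.0% of the 45 windows and in 37.4% of all 32851 promoters, GGGGCGGGG in 28.9% and 11.4%, TTGGCGC in 15.6% and 2.45%, and TGACGTCA in 11.1% and 1.79%. GCGCATGCG, a motif of NRF1, occurred in 4.44% and 1.75%, AAGATGGC, of YY1, in 2.22% and 2.75%, and CCGGAAGT in 2.22% and 3.89%. TCAAGGTCA, of estrogen-related receptors, occurred in 2.22% and 0.423%, AAGGTCA, which it contains, in 6.67% and 4.72%, and TATAAA, the TATA box, in 2.22% and 13.6%. By gene, CCAAT lay in 21 of the 34, GGGGCGGGG in 11, TTGGCGC in 5, TGACGTCA in 3 and GCGCATGCG in 1. Windows of 1 gene overlap, so the 45 are not independent. The motifs were chosen with matches in view, and these shares are descriptions.

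The difference between the comparisons of 5 against 5, tested in the same fit, was taken as the log2 fold change between libraries 16 to 20 and 1 to 5 minus that within libraries 6 to 15. It was positive for 36 of the 38 genes, with a median of 0.35 against -0.02 over all genes. None passed the false discovery rate, against 0.0553% of all genes, and the lowest adjusted p was 0.145. At an unadjusted p under 0.05, 16 members had a positive and 2 a negative difference, where 5.51% and 5.59% of all genes did. The negative ones were those of Idh1 and Pdp1, singled out after their values were seen, at -0.60 ± 0.24 and -0.39 ± 0.19. Dlst had a difference of 0.72 ± 0.17 (adjusted p = 0.145), Sdha 0.69 ± 0.18 (adjusted p = 0.161) and Pdpr 0.64 ± 0.19 (adjusted p = 0.199). By DESeq2 and by voom with quality weights, Dlst and Sdha passed and no other member did. For this difference DESeq2 passed 180 genes in all and voom 130, where edgeR passed 8. Between ranges of 1 treatment, for which no test was made, the cycle enzymes were higher in Control 6 to 10 than in Control 1 to 5 by a median of 0.15 on the log2 scale, 12 higher and 5 lower, and higher in Secretome 6 to 10 than in Secretome 1 to 5 by 0.28, 16 higher and 1 lower.

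The height of the cycle enzymes as a group differed between single muscles. As the mean over the 17 genes of log2 CPM minus the mean of the gene over all libraries, it was highest in Secretome 6 at 0.51 and Secretome 9 at 0.42, followed by Secretome 10 at 0.15, and the other Secretome 7 and 8 were at 0.00 and 0.01. It was lowest in Control 3, at -0.37, with the other libraries of Control 1 to 5 at -0.19, -0.06, -0.04 and -0.24. In libraries 6 to 15 it lay between -0.23 and 0.13. Secretome 6 and Secretome 9 also had the highest Myh2 of Secretome 6 to 10, at 2161 and 1947 CPM, against 233, 1492 and 384 CPM in Secretome 7, 8 and 10. Control 10 had Myh2 at 2099 CPM with a cycle enzyme value of 0.07.

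**Figure D4:**
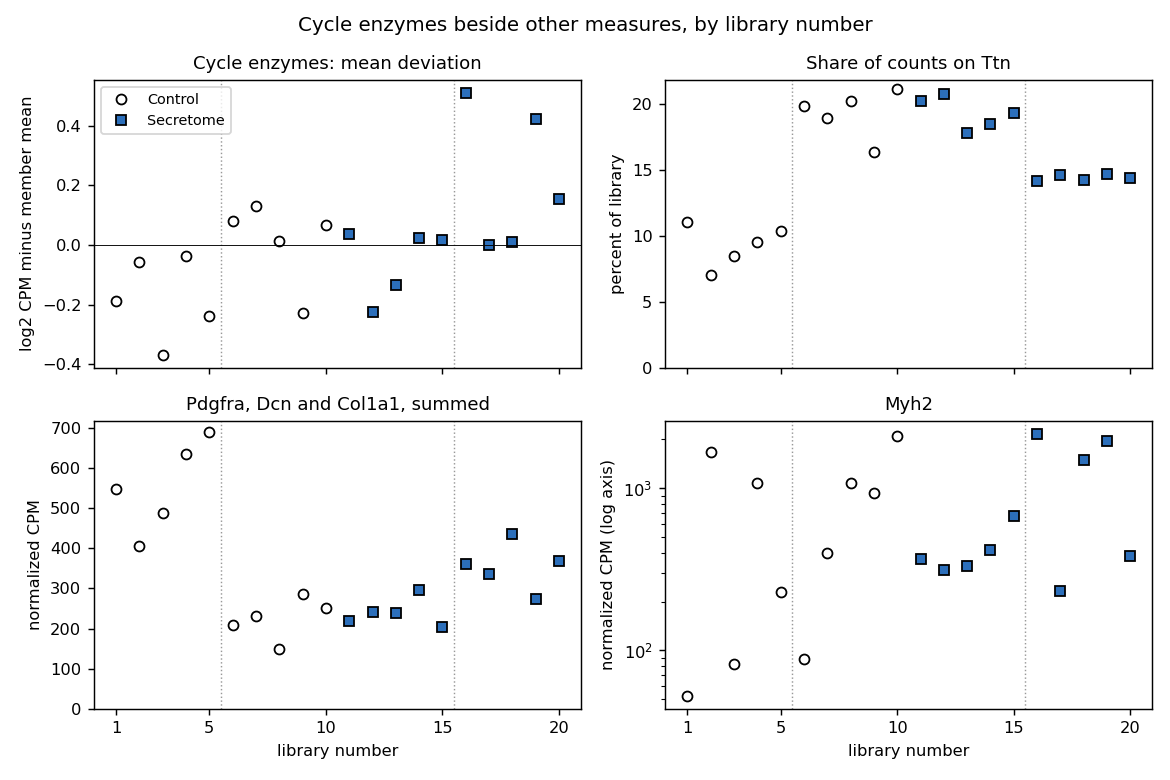
The 4 measures shown for each library by its number are the mean deviation of the 17 cycle enzymes (log2 CPM minus the mean of each gene), the percent of counts on Ttn, the summed CPM of Pdgfra, Dcn and Col1a1, and the CPM of Myh2 on a log axis, with control as open circles and secretome as blue squares. The cycle enzymes were highest in libraries 16 and 19, at 0.51 and 0.42, and Pdgfra, Dcn and Col1a1 summed to 406 to 691 CPM in libraries 1 to 5 and to at most 436 CPM in the others.

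Other genes of the pathway, from a list of 36 that holds transporters, assembly factors, lipoylation enzymes and enzymes of lactate, glutamate and ketone use, were tested for comparison. Of the 34 genes tested, 0 passed the false discovery rate in all 20 libraries. At an unadjusted p under 0.05, 7 were higher and 3 lower, where 6.52% and 9.21% of all genes tested were. The smallest p was that of Pck2, the mitochondrial phosphoenolpyruvate carboxykinase, at 5.12 CPM (2.47 to 8.45) in control and 3.10 CPM (2.36 to 4.43) in treated muscle at the median, with a log2 fold change of -0.65 ± 0.19 and an adjusted p of 0.150. All 10 treated muscles lay below the control median of Pck2. Within libraries 6 to 15, 0 of the 34 passed. There 0 were higher and 1 lower at an unadjusted p under 0.05, where 5.77% of all genes were past it in either direction. Between libraries 16 to 20 and 1 to 5, 4 passed and all 4 were higher, where 1.64% of all genes passed in that direction. Among them were Slc16a1 (0.87, adjusted p = 0.0201), the monocarboxylate transporter MCT1, Oxct1 (0.64, adjusted p = 0.0220), which starts the use of ketone bodies, and Gpt2 (0.69, adjusted p = 0.0379), the mitochondrial alanine aminotransferase. The median over the 34 genes was 0.04, -0.08 and 0.08 in the 3 comparisons in the order of the text.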

How the data were processed

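RNA was sequenced from quadriceps muscle in 20 libraries, each taken here as 1 mouse. The deposited values are whole-number counts of reads per gene, without normalization. The authors removed ribosomal RNA from total RNA and made strand-specific libraries. The submitters' processing notes name cutadapt 1.16, STAR 2.7.9a, featureCounts 1.6.3, DESeq2 1.34.0 and the GRCm39 (mm39) build. The strand setting of the counting is not given in the sources used here, so reads of overlapping genes on opposite strands may be shared. All columns were matched to samples by name, and no pair was identical.

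Symbols and exon lengths were taken from GENCODE M21 and promoters from RefSeq GRCm38.p6. Identifiers with a symbol held 98.6% or more of the counts of every library. Genes were filtered with filterByExpr, normalized with TMM and tested by the robust quasi-likelihood F-test of edgeR 4.0.16 in R 4.3.3, with Benjamini-Hochberg adjustment over 14471 genes at a 5% false discovery rate. The comparison of all libraries had treatment as its only term. The comparisons of 5 against 5 and their difference came from a fit with 4 groups over 20 libraries, which share the estimate of spread. The standard error was obtained by dividing the log2 fold change by the square root of F. Per-library values are CPM after TMM, and log2 values used a prior count of 2. The procedure was tested on simulated counts that held a change by treatment or none. They held no difference between library ranges, so that test does not bear on such a difference.

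The labels give 1 sample per replicate number, and p-values measure the spread between these muscles. Samples were not treated as paired by replicate number: the deviations of same-numbered libraries correlated between -0.240 and 0.221, above 0.1 in 2 of 10 pairs. The members, lists, library ranges and motifs were chosen with earlier results of these data known, and the 10 motifs and 4 promoters with matches or results in view. Genes with full values were those past the false discovery rate in any comparison, those with the smallest p over all libraries in each role (4 cycle enzymes, 3 of pyruvate dehydrogenase, 2 of each other role), the 3 with the smallest p for the difference, the highest and lowest per kilobase, and the 3 other pathway genes with the smallest p, not all of which are reported here. Values of Idh1, Idh2, Pdp1 and the libraries that stood apart were added after they were seen. Alternatives were DESeq2 1.42.0, RLE scaling, library totals alone, no filter, voom of limma 3.58.1 with quality weights, a 10% false discovery rate, the replicate number as a block, the library range as a term, the 10 libraries of a comparison alone, and each library left out.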

Additional observations from a re-analysis of the deposited data

Results flagged for a closer look

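In groups of 10, a library was singled out where its gap to the nearest other exceeded 0.466 of the group's range in log2 CPM. This held in 9 of 76 gene-by-treatment groups, where chance gives about 3.8. Control 2 was highest for 4 genes, which were Sdhb at 8.96 (next 7.84), Got1 at 8.78 (next 7.82), Idh3b at 8.08 (next 7.81) and Mpc2 at 7.55 (next 6.68). Control 9 was lowest for Pdk2 at 7.73 (next 8.25), Idh3g at 6.53 (next 7.01) and Sdhd at 5.94 (next 6.33). Secretome 6 was highest for Pdha1 at 9.33 (next 8.91), and Secretome 3 was lowest for Mpc1 at 5.64 (next 6.33). Without Control 2, 8 members passed between libraries 16 to 20 and 1 to 5, among them Cs and Pdk1 in place of Idh3a and Sucla2. Without Secretome 6, 1 passed.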

How the results depend on the processing

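The count of 0 members in all libraries and within libraries 6 to 15 held under every alternative run. Between libraries 16 to 20 and 1 to 5, the 8 members became 13 with DESeq2, 13 at a 10% false discovery rate, 3 (2 higher and 1 lower, Idh1) with library totals alone and 0 with the 10 libraries fitted alone, and 1 to 12 with a library left out. With library totals alone the share of members that passed was below the share of all genes tested that passed, in either direction. Without the filter and with voom 6 passed, and with RLE scaling 8. For the difference, 2 members passed with DESeq2, where 180 genes in all passed, 2 with voom, where 130 passed, and 0 otherwise. The cycle enzyme median was 0.16 with library totals alone between libraries 16 to 20 and 1 to 5, and -0.088 with the library range as a term in all libraries. With a library left out it ran from 0.09 to 0.20 in all libraries, from -0.15 to -0.05 within libraries 6 to 15 and from 0.32 to 0.45 between libraries 16 to 20 and 1 to 5. The replicate block gave a median of 0.14 and 0 members past the threshold, and changed no call. The sources used here do not state that samples with the same replicate number share an origin.

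Changes of sign were looked up for the 17 genes given with full values. Among all cycle enzymes in all libraries, 9 were higher and 8 lower with library totals alone, and 6 and 11 with the range term, against 16 and 1. With the library range as a term, Ogdh was at -0.15, Dlst -0.16, Suclg2 -0.036, Sdha -0.088 and Got2 -0.20 in all libraries. With library totals alone, Ogdh was at -0.029, Aco1 -0.070 and Got2 -0.016 in all libraries, Aco1 -0.16 between libraries 16 to 20 and 1 to 5, and Dld -0.031 and Aco1 -0.18 in the difference. With voom, Got2 was at -0.0065 in all libraries, Pdpr -0.027 within libraries 6 to 15, Aco1 -0.082 between libraries 16 to 20 and 1 to 5 and -0.12 in the difference. With a library left out, values within libraries 6 to 15 ran from -0.017 to 0.099 for Sucla2, -0.13 to 0.015 for Suclg2, -0.0071 to 0.089 for Aco1, -0.019 to 0.091 for Pdha1, -0.0068 to 0.12 for Dlat and -0.070 to 0.062 for Pdpr. Between libraries 16 to 20 and 1 to 5 Pdk3 ranged from -0.46 to 0.15, and in the difference Aco1 ranged from -0.034 to 0.14. None of these passed the threshold. The cause of these changes was not tested, apart from the range term, which leaves only libraries 6 to 15 to compare. Pdk3, with 4 counts in a library, is the member that depth limits most.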
